A study of Canis lupus familiaris with 2 samples.

Results

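The genes described here are 10 components of the Hippo pathway, the 4 TEAD transcription factors (TEAD1, TEAD2, TEAD3 and TEAD4), the TEAD cofactor VGLL4, the scaffold proteins NF2, WWC1 and SAV1, the kinase STK4 and the kinase adaptor MOB1A. They were taken by gene symbol from 23510 features listed for MDCK cells, a long-established dog kidney cell line whose cells form a columnar epithelial sheet. The study compared the RNA of 1 culture under 2-cm-high medium (the 2-cm culture) with that of 1 culture under 50-cm-high medium (the 50-cm culture), both taken at day 3 of growth on a culture insert in EMEM with serum. The medium column presses on the cells, and the labels describe the 2-cm culture as being without pressure and give no other treatment for either. The paper's methods, however, count the 2-cm column as a small pressure load. Because each group held 1 culture, no value has a replicate error, no gene could be tested, and every difference below compares these 2 cultures only. In RNA from whole cultures, a shift in the share of cells that express a gene cannot be told apart from a shift in RNA per cell.

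The Hippo pathway is a kinase cascade that restrains organ growth and reads out cell density, polarity and tension in epithelia. At the membrane, NF2 and WWC1 bring together the kinases of the pathway. The MST kinases, STK4 and STK3, work with the scaffold SAV1 to activate the LATS kinases, which need MOB1 proteins, and LATS phosphorylates YAP and TAZ and keeps them out of the nucleus. Free YAP and TAZ bind TEAD factors, which hold the DNA-binding domain, whereas VGLL4 competes with YAP for the same TEAD surface. The activity of the pathway is set mainly by phosphorylation and location of its proteins, and RNA levels of its components do not measure either.

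All 10 genes were found in the files, and all 10 had a value above 1 FPKM (sequenced fragments scaled by exon length and by the fragments mapped in the library) in both cultures, the minimum given in the study's methods. The minimum therefore removed none of them. Ratios were formed as 50-cm FPKM divided by 2-cm FPKM. As no replicates exist, each log2 ratio was set beside the spread of log2 ratios in its 500 neighbours, the features closest to it in mean log2 FPKM. This spread, a scaled median absolute deviation across genes, holds noise and true differences alike and cannot stand for the error between cultures. It lay between 0.190 and 0.292 for the 10 genes. FPKM is divided by exon length, so levels of different genes can be compared within a culture as far as the annotated exons are complete. The reads behind each value are unknown. TEAD paralogs resemble each other in parts of their coding sequence, as do MOB1A and MOB1B and the WWC genes, and the way in which reads matching more than 1 paralog were divided is not given in the sources used here.

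The cultures were checked against cell type markers. Of 8 epithelial genes checked, 7 were above 30 FPKM in both cultures, among them CDH1 at 211 and 229 FPKM in the 2-cm and 50-cm cultures. The kidney cadherin CDH16 was the exception at 1.96 and 0.676 FPKM. Leukocyte PTPRC and endothelial PECAM1 were listed at 0 in both cultures, and fibroblast COL1A1 and muscle DES stayed below 0.1 FPKM.

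None of the 10 genes differed by 2-fold between the cultures, and none differed by 1.5-fold. Of the 11057 features above 1 FPKM in both cultures, 1.67% passed 2-fold and 7.19% passed 1.5-fold, so a count of 0 among 10 genes is near the background. Those shares depend on the minimum, as 5.50% and 14.3% of features passed above 0.1 FPKM, and 0.708% and 3.84% above 5 FPKM, whereas the count among the 10 genes stayed at 0. The paper's methods count more genes past their fold limit than were found here at the minimum they state. Their count equals the one found here at the lowest of these minima, and the reason is unknown. The shares at the stated minimum therefore need not be the background of the paper's own gene list. The ratios of the 10 genes ran from 0.825 for TEAD2 to 1.214 for TEAD4. The FPKM value was higher in the 50-cm culture for 6 genes and lower for 4. After rescaling to a common sum or quantile normalization the counts were 5 and 5, as MOB1A changed sides. As deposited, 52.6% of all features had a ratio above 1. The median log2 ratio was 0.05 over the 10 genes and 0.01 over all features (0.020 and -0.018 after rescaling to a common sum, and 0.017 and 0.011 after quantile normalization), and the median absolute log2 ratio was 0.0997 and 0.168, respectively.

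**Figure D1:**
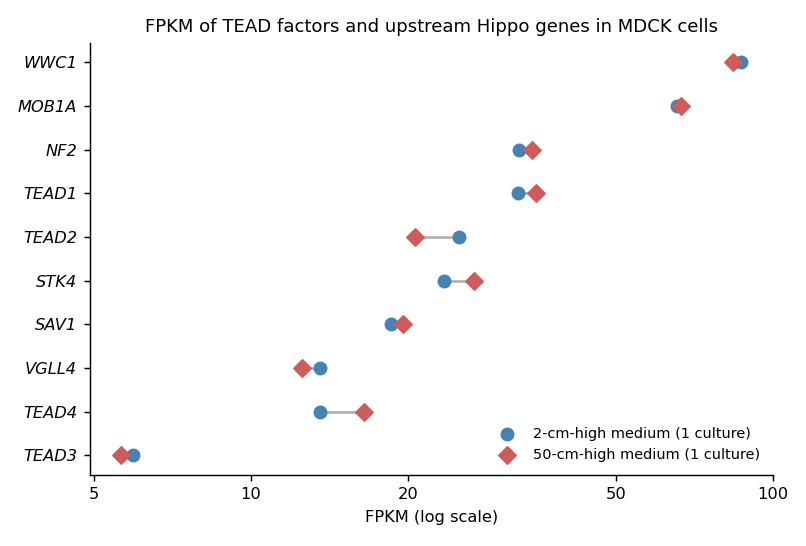
FPKM values (log axis) of the 10 genes in the 2-cm (circles) and 50-cm (diamonds) cultures, 1 culture each, ordered by the 2-cm value. The levels run from under 6 FPKM for TEAD3 to over 80 FPKM for WWC1, and the widest gaps between the cultures are those of TEAD2 and TEAD4, which lie in opposite directions.

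The TEAD factors were all present, at unequal levels, and their sum was nearly equal in the 2 cultures. TEAD1 had 32.5 FPKM in the 2-cm culture and 35.2 FPKM in the 50-cm culture, and was the most abundant TEAD gene in both. TEAD2, a family member prominent in early embryonic tissue, had 25.0 FPKM in the 2-cm culture and 20.6 FPKM in the 50-cm culture. TEAD4, best known for its part in forming the trophectoderm, had 13.5 and 16.4 FPKM. The least abundant was TEAD3, a family member abundant in placenta, at 5.93 and 5.62 FPKM. TEAD2 and TEAD4 thus lay on opposite sides, with TEAD2 17.5% lower and TEAD4 21.4% higher in the 50-cm culture.

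Added together, the TEAD genes came to 77.0 FPKM in the 2-cm culture and 77.9 FPKM in the 50-cm culture, a ratio of 1.012 (0.989 after rescaling to a common sum and 0.992 after quantile normalization). Within that sum the composition shifted. TEAD1 made up 42.3% of it in the 2-cm culture and 45.2% in the 50-cm culture, TEAD4 went from 17.6% to 21.1%, and TEAD2 from 32.5% to 26.5%. TEAD3 held 7.71% and 7.22%. The ratio of TEAD4 to TEAD2, which any rescaling of a whole library leaves as it is, was 0.542 in the 2-cm culture and 0.796 in the 50-cm culture, a 1.47-fold difference. The ratio of TEAD1 to TEAD2 was 1.30 and 1.71.

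Set beside features of like expression, the TEAD2 and TEAD4 ratios were the only ones of the 10 genes to lie more than 1 spread from 0, and neither reached 2 spreads. TEAD2 had a log2 ratio of -0.28, which is -1.37 times the spread of its 500 nearest features (0.202), and 111 of those 500 features had a larger absolute log2 ratio. TEAD4 had a log2 ratio of 0.28, or 1.35 times its spread (0.207), and 126 of its 500 neighbours differed more. Over all features above 1 FPKM, 29.8% had a larger absolute log2 ratio than TEAD2. Differences of this size were common in this pair of libraries. TEAD1 (log2 ratio 0.11) and TEAD3 (log2 ratio -0.08) were exceeded by 298 and 407 of their 500 neighbours.

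**Figure D2:**
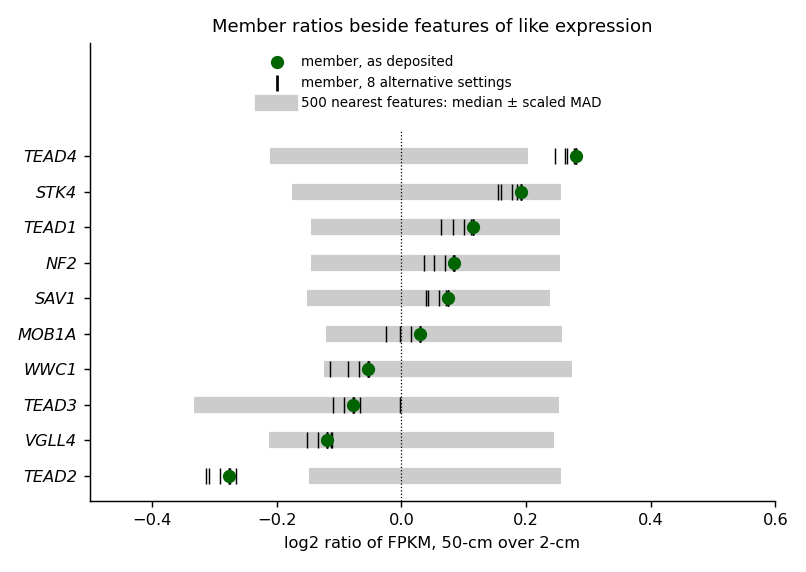
Log2 ratio of 50-cm over 2-cm FPKM for each of the 10 genes (green points), with the values under 8 alternative settings (black ticks) and, as grey bars, the median ± the scaled median absolute deviation (MAD) of the 500 features nearest in expression. Only TEAD2 and TEAD4 lie outside their grey bars, and the ticks of MOB1A fall on both sides of 0.

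VGLL4, the cofactor that carries tandem TEAD-binding Tondu domains, had 13.6 FPKM in the 2-cm culture and 12.5 FPKM in the 50-cm culture. Its log2 ratio was -0.12, and 299 of its 500 neighbours differed more. The summed TEAD genes stood at 5.67 times VGLL4 in the 2-cm culture and at 6.23 times in the 50-cm culture. The activating TEAD partners were more abundant than VGLL4 in both cultures. YAP1 had 37.2 FPKM in the 2-cm culture and 38.6 FPKM in the 50-cm culture. WWTR1, which encodes TAZ, had 129.6 and 100.8 FPKM, a 22.2% lower value under the higher medium (log2 ratio -0.36, -1.94 times its spread, with 68 of 500 neighbours differing more). Multiples of the spread are counted from 0, and the WWTR1 neighbours had a median log2 ratio of 0.085.

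WWTR1 therefore exceeded YAP1 by 3.48 times in the 2-cm culture and by 2.61 times in the 50-cm culture. The sum of YAP1 and WWTR1 was 167 FPKM in the 2-cm culture and 139 FPKM in the 50-cm culture (ratio 0.836). Per unit of summed TEAD RNA this came to 2.17 and 1.79, as the TEAD sum was nearly the same in both cultures. VGLL4 stood at 0.0814 of the YAP1 and WWTR1 sum in the 2-cm culture and at 0.0896 in the 50-cm culture. The other Vestigial-like genes were at or near 0. VGLL1 had 0.630 and 0.692 FPKM, VGLL2 was listed at 0 in both cultures, and VGLL3 was listed at 0 in the 2-cm culture and at 0.0362 FPKM in the 50-cm culture. The VGLL1 ratio, 1.0977, is the one that equal read numbers leave in these files, since 219 of the 574 features with values between 0 and 0.1 FPKM on both sides lay within 0.2% of it. On that reading VGLL1 had the same number of reads in both libraries.

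Among the membrane scaffolds, WWC1, which encodes the polarity-linked protein KIBRA, was the most abundant of the 10 genes, with 86.8 FPKM in the 2-cm culture and 83.7 FPKM in the 50-cm culture. It ranked above 90.0% of all features over 1 FPKM in the 2-cm culture and above 89.1% in the 50-cm culture. NF2, the gene of the tumour suppressor merlin, an ERM-related protein that links membrane to cortical actin, had 32.6 FPKM in the 2-cm culture and 34.6 FPKM in the 50-cm culture. The log2 ratios were -0.05 for WWC1 and 0.08 for NF2, and 410 and 344 of their respective 500 neighbours differed more. WWC1 was thus 2.66 times as abundant as NF2 in the 2-cm culture and 2.42 times in the 50-cm culture.

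The WWC1 paralogs were less abundant, and WWC3 differed more than WWC1 did. WWC2 had 12.98 and 13.44 FPKM, and WWC3 had 10.9 FPKM in the 2-cm culture and 14.3 FPKM in the 50-cm culture (log2 ratio 0.40, 1.73 times its spread, with 65 of 500 neighbours differing more). WWC1 accounted for 78.4% of the summed WWC FPKM in the 2-cm culture and for 75.1% in the 50-cm culture, whereas the sum itself was 111 FPKM in each culture, with a ratio of 1.007 as deposited and of 0.985 after rescaling to a common sum.

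In the core kinase module, STK4, SAV1 and MOB1A each had a slightly higher value in the 50-cm culture, MOB1A not under every scaling. STK4, which encodes the kinase MST1, had 23.4 FPKM in the 2-cm culture and 26.8 FPKM in the 50-cm culture, 14.3% more (log2 ratio 0.19, with 192 of 500 neighbours differing more). SAV1, the scaffold that dimerises with MST through its SARAH domain, had 18.6 and 19.6 FPKM. MOB1A, the LATS coactivator, had 65.4 and 66.7 FPKM, the smallest difference of the 10 genes at 2.09%. The log2 ratios of SAV1 (0.07) and MOB1A (0.03) were exceeded by 345 and 445 of their 500 neighbours.

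STK4 and MOB1A were the main paralogs of their pairs in both cultures. STK3, which encodes MST2, had 4.57 FPKM in the 2-cm culture and 4.69 FPKM in the 50-cm culture, so that STK4 was 5.13 and 5.71 times as abundant. MOB1B had 6.88 and 6.05 FPKM, and MOB1A exceeded it 9.50-fold and 11.0-fold. The LATS genes were of similar abundance to each other. LATS1 had 15.02 FPKM in the 2-cm culture and 18.07 FPKM in the 50-cm culture, and LATS2 had 11.0 and 13.9 FPKM, so that their sum was 26.05 and 31.99 FPKM (ratio 1.228). Of 500 neighbours each, 135 differed more than LATS1 and 87 more than LATS2. All 7 genes of the module were above 1 FPKM in both cultures. Of these, 6, all but MOB1B, were higher in the 50-cm culture (5 after rescaling to a common sum or quantile normalization). As deposited, the share of all features with a higher value was 52.6%. The median log2 ratio was 0.07 over the module and 0.01 over all features. It was 0.042 and -0.018 after rescaling to a common sum, and 0.154 and 0.011 after quantile normalization.

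**Figure D3:**
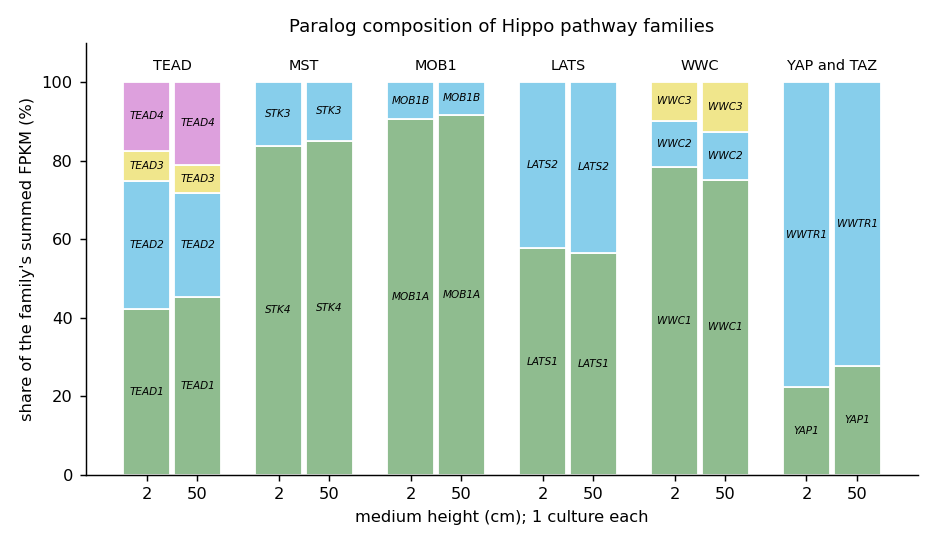
Share of each family's summed FPKM (%) held by each paralog in the 2-cm and 50-cm cultures, 1 culture each, for the TEAD, MST, MOB1, LATS and WWC families and for YAP1 with WWTR1. The TEAD2 share is 32.5% and 26.5% in the respective cultures, the WWTR1 share is 77.7% and 72.3%, and STK4, MOB1A and WWC1 hold the largest shares of their families in both.

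The order of the 10 genes by level was nearly the same in both cultures. WWC1, MOB1A and SAV1 held ranks 1, 2 and 7, and TEAD3 rank 10, in both. The remaining 6 genes exchanged places in neighbouring pairs. NF2 (32.6 FPKM) was just above TEAD1 (32.5 FPKM) in the 2-cm culture and just below it in the 50-cm culture, and VGLL4 (13.6 FPKM) likewise passed from above TEAD4 (13.5 FPKM) to below it. TEAD2 was above STK4 in the 2-cm culture (25.0 against 23.4 FPKM) and below it in the 50-cm culture (20.6 against 26.8 FPKM). Without replicates, it cannot be said whether any of these neighbours differ beyond the error of a culture.

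**Figure D4:**
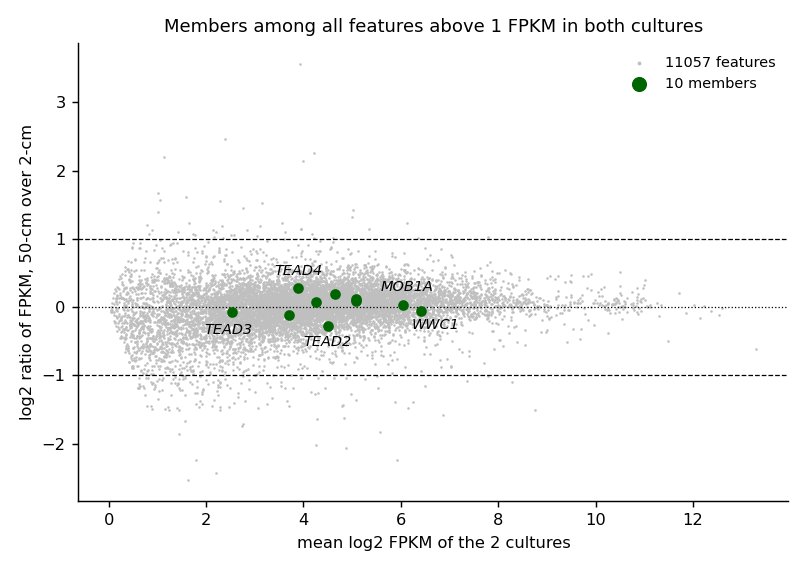
Log2 ratio of 50-cm over 2-cm FPKM against the mean log2 FPKM for the 11057 features above 1 FPKM in both cultures (grey), with the 10 genes in green and 2-fold marked by dashed lines. The 10 genes lie between -0.28 and 0.28 on the log2 scale, inside the body of the grey points and far from either dashed line.

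The wider pathway was described with a list of 71 further Hippo genes, of which 70 were found in the files and 57 were above 1 FPKM in both cultures. Of these 57, 39 had a higher and 18 a lower value in the 50-cm culture (34 higher after rescaling to a common sum or quantile normalization). As deposited, 52.6% of all features had a ratio above 1. The median log2 ratio was 0.06 over the 57 genes and 0.01 over all features (0.030 and -0.018 after rescaling to a common sum). With a minimum above 5 FPKM, which 50 of these genes passed, it was 0.088 and 0.036. Only SFN passed 2-fold in either direction, 1 of 57 genes beside 1.67% of all features, so that count is near the background. Of all features, 0.389% were more than 2-fold higher. SFN encodes stratifin, a member of the 14-3-3 family whose proteins hold phosphorylated partners in the cytoplasm. It had 156 FPKM in the 2-cm culture and 319 FPKM in the 50-cm culture, a log2 ratio of 1.03, and 2 of its 500 neighbours differed more. The call rests on the scaling, since the SFN ratio of 2.05 became 1.9999 after rescaling to a common sum and 1.97 after quantile normalization.

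Besides SFN, AMOTL2 and FJX1 were more than 1.5-fold higher in the 50-cm culture. In that direction 3 of 57 genes passed, beside 2.13% of all features. In either direction 4 of 57 passed 1.5-fold, beside 7.19% of all features, so that count is near the background. AMOTL2, an angiomotin relative that binds YAP at junctions and is itself known as a YAP target, had 17.3 FPKM in the 2-cm culture and 31.3 FPKM in the 50-cm culture (log2 ratio 0.86, with 6 of 500 neighbours differing more). FJX1, the relative of the Drosophila four-jointed kinase that acts on Fat and Dachsous cadherins, had 3.93 and 7.11 FPKM (log2 ratio 0.86, with 26 of 500 neighbours differing more). MAP4K1, a kinase mainly known from blood cells, was the only gene more than 1.5-fold lower, at 3.45 and 2.23 FPKM (log2 ratio -0.63, with 85 of 500 neighbours differing more), and its ratio of 0.647 no longer passed with a pseudocount of 1 (0.726) or after quantile normalization (0.725). After MAP4K1, the lowest ratios were those of BTRC, a ubiquitin ligase subunit that recognises phosphorylated YAP, with 5.61 and 4.34 FPKM (log2 ratio -0.37), and of WWTR1.

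By group, the membrane scaffolds and the STRIPAK phosphatase complex, which dephosphorylates MST, were among several with more genes higher than lower in the 50-cm culture. As deposited, the share of all features with a ratio above 1 was 52.6%, and the median log2 ratio over all features was 0.01. That median was -0.018 after rescaling to a common sum and 0.011 after quantile normalization. Of 8 scaffold genes above 1 FPKM, NF2 and WWC1 included, 6 were higher (7 after quantile normalization). Their median log2 ratio was 0.197 (0.165 and 0.218 under the respective scalings). Of 13 STRIPAK genes 11 were higher (9 after rescaling to a common sum and 8 after quantile normalization). Their median log2 ratio was 0.0985 (0.066 and 0.081). Of 11 genes of YAP retention and degradation, 7 were higher (6 under either scaling) with a median log2 ratio of 0.124 (0.092 and 0.042). Of 3 LATS inhibitors of the Ajuba family, 2 were higher (1 after rescaling to a common sum). The 12 kinases parallel to or above MST were divided evenly, 6 higher and 6 lower (5 and 7 under either scaling), and the 4 RASSF genes were 2 and 2 (1 and 3 after quantile normalization). Of 7 genes of the FAT and Dachsous group only FAT1 and FJX1 were above 1 FPKM in both cultures, and FAT1, an atypical cadherin, had 27.8 and 31.4 FPKM. AMOT and FRMD1 were listed at 0 in both cultures.

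**Figure D5:**
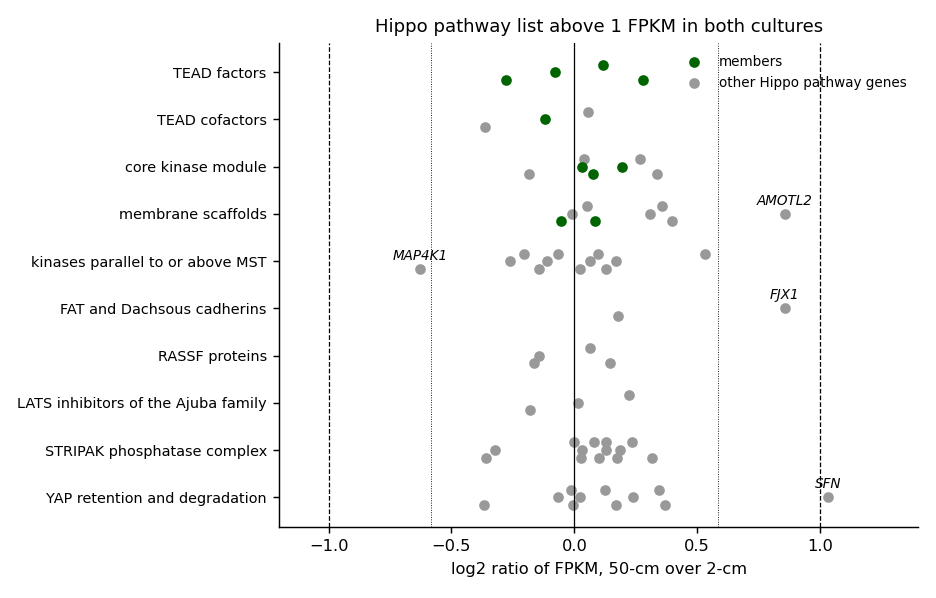
Log2 ratio of 50-cm over 2-cm FPKM for the Hippo pathway genes above 1 FPKM in both cultures, by group, with the 10 genes described here in green and 57 further genes in grey (dotted lines, 1.5-fold; dashed lines, 2-fold). The 4 labelled genes, SFN, AMOTL2, FJX1 and MAP4K1, are those past 1.5-fold, and no green point is among them.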

How the data were processed

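RNA sequencing covered 2 MDCK cultures, 1 per medium height. The authors made stranded mRNA libraries, read 75 bases from one end, mapped to CanFam3.1 with TopHat2 2.0.13, SAMtools 0.1.19 and Bowtie2 2.2.3, and deposited FPKM values from Cuffnorm 2.2.1. The annotation, library scaling and read totals are not given in the sources used here. A read counted for 9.77% more FPKM in the 50-cm culture, as steps among the lowest values show. Ratios were taken with no pseudocount for features that exceeded 1 FPKM on both sides, with 2-fold as the study's limit and 1.5-fold as a milder one. No test was run.

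The 10 genes and the wider list were chosen with earlier results of these data known. Named are the 10 genes, 11 paralogs and partners, listed genes past 2-fold, and the 3 highest and 3 lowest ratios. FAT1, AMOT, FRMD1 and DCHS1 were added after their values were seen. PPP2R1A is not analysed here, and 1 further gene of the wider list is not reported here. Alternatives were 3 other FPKM minima, pseudocounts of 0.1 and 1, and 3 other scalings. Scripts were tested on simulated data and ran in Python 3.11.15 with pandas 2.3.3, numpy 2.4.6 and matplotlib 3.10.9.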

Additional observations from a re-analysis of the deposited data

How the results depend on the processing

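No paired analysis was possible because each medium height has 1 culture, and no replicate could be left out. Under the 8 alternatives, all 10 genes were kept, none passed 1.5-fold, and 9 kept the direction of their ratio. MOB1A was the exception, as its log2 ratio of 0.03 became negative under 2 alternatives, rescaling to a common sum and quantile normalization, with a lowest value of -0.03. With either of these, 5 of the 10 genes were higher and 5 lower. TEAD2 ranged from -0.31 to -0.27 and TEAD4 from 0.25 to 0.28, while TEAD3 came as close to 0 as -0.002. Of the 57 further Hippo genes, 1 passed 2-fold as reported (SFN), 0 after rescaling to a common sum and 0 after quantile normalization. The respective shares of all features were 1.67%, 1.75% and 1.45%. Where any value above 0 was accepted, 2 of 63 passed, beside 8.50% of all features. That setting admits DCHS1, a gene below 0.1 FPKM in both cultures whose ratio is that of 5 reads to 1. With a minimum above 5 FPKM, 2 of 50 genes rather than 4 of 57 passed 1.5-fold, since that minimum removes FJX1 and MAP4K1. The respective shares of all features were 3.84% and 7.19%. The count was 3 of 57 with a pseudocount of 1 and after quantile normalization, each without MAP4K1, beside 4.65% and 6.49% of all features. It was 5 of 63 where any value above 0 was accepted, beside 18.0% of all features. Unknown read numbers limit what the values of TEAD3, STK3 and MOB1B, the weakest genes named with a ratio to a paralog, can show.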
